A study of Rattus norvegicus with 6 samples.

Results

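The 10 genes described here run the cell division cycle: the cyclins Ccnd1, Ccne1 and Ccnb2, the kinases Cdk1, Plk1 and Aurkb, the mitotic activator Cdc20, and the DNA replication factors Pcna, Rfc4 and Fen1. They were chosen by measured values, because earlier results on these arrays had drawn attention to their tumor-to-normal ratios, so those ratios are given as a description with no test. All spots that the platform annotation assigns to 1 of the 10 symbols were taken, which gave 16 cDNA clones and 32 spots, of 3158 named genes, 8064 clones and 16128 spots on the array.

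Total RNA was measured from JA, JB and Amy, 3 lines of rat esophageal tumor cells whose tumors arose under reflux, in which stomach contents flow back up the esophagus. The control was a pool of equal parts of 2 normal rat esophageal cell lines, and the sources used here give no treatment, age or strain for any line. Each tumor line was hybridized with the pool on 2 two-colour cDNA arrays, once with the line in the dye Cy3 and once with it in Cy5, so the 6 arrays are 3 technical dye swaps and each line is 1 replicate. Each group is a cell line grown apart from its tissue, and the pool is 1 control sample whose own spread is not measured. A value is the deposited log ratio, taken as log2 and read as tumor line over pool. This direction is only likely, since it was taken from which name comes first in each sample title, and the opposite direction would exchange higher and lower in every statement. Errors are SD over the 3 lines. They measure only the spread between these lines. The p-values come from limma, which draws the variance of each gene toward that of all features, and they too leave out the spread of the pool.

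D-type and E-type cyclins drive cells through G1 and into S phase by activating cyclin-dependent kinases, which release E2F transcription factors from the retinoblastoma proteins. In S phase the clamp loader places the PCNA ring on DNA, where it holds polymerases and the flap endonuclease. In mitosis CDK1 with B-type cyclins, Polo-like kinase and the Aurora kinases build the spindle and attach the chromosomes, and CDC20 then switches on the anaphase-promoting complex (APC/C), which marks B-type cyclins and securin for destruction.

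Of the 10 genes, 8 had ratios above 0 on all 6 arrays, and 6 had mean log2 ratios over 2. Ccne1, Plk1, Cdk1 and Cdc20 lay highest, Rfc4 and Fen1 next, and Ccnd1 and Pcna lower. Ccnb2 was below 0 on all 6 arrays and Aurkb on 5 of 6. The remaining Aurkb array, JA in Cy3, read 0.01 from duplicate spots at -0.46 and 0.48. Under limma's test of the 3 line means against 0 over all 7180 features (named genes and unnamed clones), at an adjusted p under 0.05, 20.7% of features were called higher, among them 8 of the 10 genes, and 32.8% were called lower, among them the other two. Nothing is read from these counts, because the same contrast chose the genes. The sources used here give no cycle phase for the cells, so a higher share of dividing cells and more RNA in each dividing cell cannot be told apart.

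**Figure D1:**
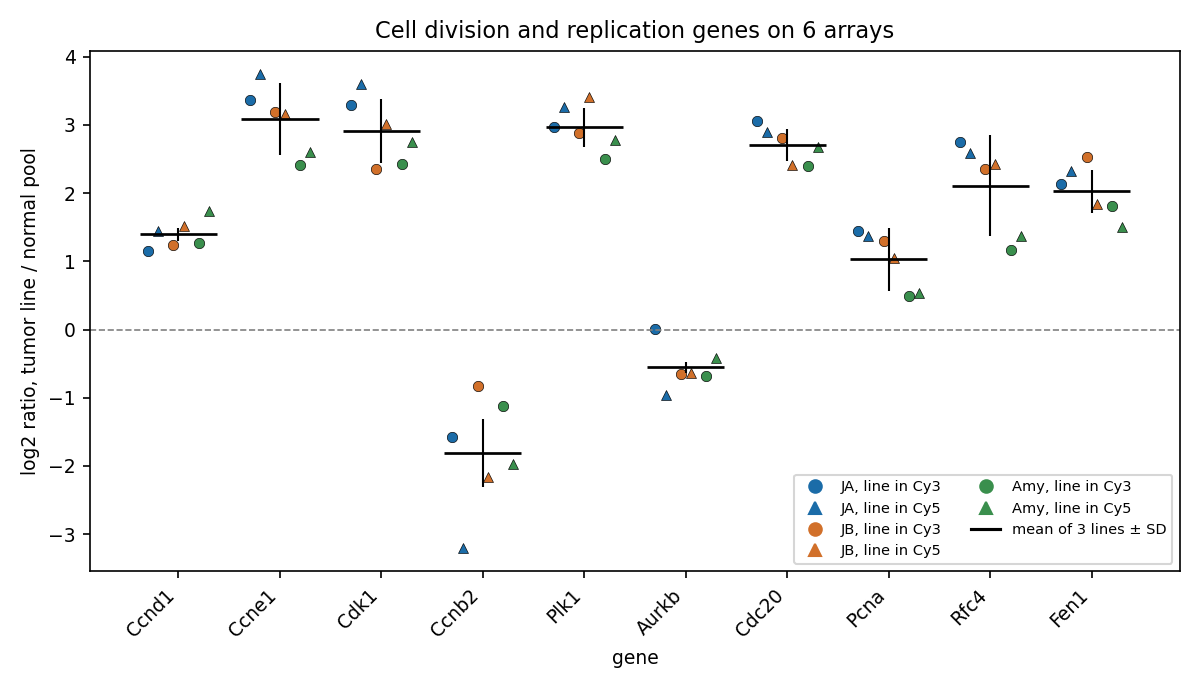
Log2 ratio of tumor line over normal pool (y axis) for the 10 genes (x axis), with 1 point for each of the 6 arrays, coloured by line and shaped by dye orientation; horizontal lines and bars are the mean and SD of the 3 lines. Ccne1, Cdk1, Plk1 and Cdc20 sit above 2 on every array, while Ccnb2 lies between -3.20 and -0.83 with the Cy5 points lowest.

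Mitotic genes as a class often share short promoter elements: a CCAAT box, bound by NF-Y, and the cell cycle homology region, bound by the DREAM and MuvB complexes. Because Cdk1, Cdc20 and Plk1 were high and Ccnb2 was low in the same lines, the bases upstream of these 4 genes are shown, from the RefSeq promoter table of build GRCr8, 5′ to 3′ on the strand of the gene. Stretches that the annotation places within the gene are left off. Capitals mark 3 kinds of match, searched on both strands. The first is the CCAAT box, which reads ATTGG where it lies on the other strand. The second is the homology region, as TTTGAA or as its variant TTCGAA. The third is the E2F site, as TTCCCGC or as the form TTGGCGC. No motif overlapped another in the printed bases.
Cdk1, chr20:19265043-19265251, plus strand: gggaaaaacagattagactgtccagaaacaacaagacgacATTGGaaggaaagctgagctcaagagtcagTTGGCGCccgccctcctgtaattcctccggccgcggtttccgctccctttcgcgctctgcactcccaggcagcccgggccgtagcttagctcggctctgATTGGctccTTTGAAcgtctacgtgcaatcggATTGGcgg
Cdc20, chr5:137255800-137256049, minus strand: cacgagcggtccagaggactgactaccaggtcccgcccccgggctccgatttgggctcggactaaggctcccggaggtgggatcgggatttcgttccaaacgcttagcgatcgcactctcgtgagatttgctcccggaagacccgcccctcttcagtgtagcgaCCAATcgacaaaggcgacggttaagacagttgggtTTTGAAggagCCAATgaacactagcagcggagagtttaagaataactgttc
Plk1, chr1:186147408-186147657, plus strand: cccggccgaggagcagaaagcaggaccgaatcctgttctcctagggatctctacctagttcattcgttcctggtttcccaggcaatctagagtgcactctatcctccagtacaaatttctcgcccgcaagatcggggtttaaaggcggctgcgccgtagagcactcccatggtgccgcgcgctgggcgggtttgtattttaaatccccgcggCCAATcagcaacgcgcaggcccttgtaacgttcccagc
Ccnb2, chr8:79981718-79981908, minus strand: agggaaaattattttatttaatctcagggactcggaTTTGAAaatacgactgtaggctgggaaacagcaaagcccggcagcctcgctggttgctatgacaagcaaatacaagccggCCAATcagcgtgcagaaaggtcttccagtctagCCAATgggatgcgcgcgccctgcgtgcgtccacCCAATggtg

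Ccnb2, whose low ratio rests on 1 of its 2 clones, shared CCAAT and TTTGAA with Cdk1 and Cdc20. Within the 250 bases before the annotated start, Ccnb2 held CCAAT at -134, -101 and -68 and TTTGAA at -214 and -43. Cdk1 held CCAAT at -210, -81 and -49, TTTGAA at -72 and -16, and TTGGCGC at -180. Cdc20 held CCAAT at -86 and -41 with TTTGAA at -51 between them. Plk1 had CCAAT at -38, and its TTTGAA lay at position 6, after the start. Positions name the first base of a match in the direction of the gene, as its offset from the first base after those 250. The matches at -43 in Ccnb2 and -16 in Cdk1 lie before the start that the promoter table uses but in the stretches left off above, so they are not among the printed capitals.

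Of the 10 genes, 8 had an entry in the promoter table. CCAAT was present in 5 of the 8, against 34.0% of 33469 promoters of the same length, and TTTGAA or TTCGAA in 3 of 8, against 17.4%. Both together were found in Ccnb2, Cdk1 and Cdc20, against 6.31% of all promoters. E2F letters were found in Cdk1 and Rfc4 (5% of all promoters), and the Sp1 box GGGCGG in 6 of 8 (30.5%). Windows that also took in the 50 bases after the start, a choice made after the data were seen, added only the Plk1 match, giving 4 of 8 with the homology region against 19.7%. These matches are letters in a window, not measured sites.

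The cyclins of G1 and S phase were both higher in all lines. Ccne1 encodes cyclin E1, the partner of CDK2 at the entry to S phase. Its log2 ratio in JA, JB and Amy was 3.36, 3.19 and 2.42 with the line in Cy3, and 3.74, 3.17 and 2.60 with the line in Cy5. Both Amy arrays lay below all 4 arrays of JA and JB. The mean was 3.08 ± 0.53 (SD, n = 3 lines), an 8.45-fold ratio and the highest of the 10, from 1 clone.

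Ccnd1, cyclin D1, the partner of CDK4 and CDK6, had the smallest spread between lines among the higher genes. Its ratios were 1.16, 1.24 and 1.27 in JA, JB and Amy with the line in Cy3, and 1.45, 1.51 and 1.73 in Cy5. With all spots kept, all 3 Cy5 values lay above all 3 Cy3 values, and the lines overlapped. The mean was 1.39 ± 0.10 (SD, n = 3), a 2.63-fold ratio, and its 2 clones averaged 1.28 and 1.51. On 1 array, Amy in Cy3, the duplicate spots of the first clone read 0.32 and 1.64, a gap reached by 2.46% of all 48384 pairs of duplicate spots. Without the lower spot the Ccnd1 mean was 1.45 ± 0.19 (SD, n = 3). Amy in Cy3 then read 1.59, above the Cy5 values of JA and JB.

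Cdk1, the kinase that drives entry into mitosis, was highest in JA. It stood at 3.30 and 3.60 in JA (Cy3, then Cy5), at 2.36 and 3.02 in JB, and at 2.43 and 2.75 in Amy. JA was above both other lines on either dye, while JB and Amy changed order with the dye. The mean was 2.91 ± 0.47 (SD, n = 3), a 7.51-fold ratio. The 2 clones gave 2.89 and 2.93, a gap of 0.03; both carry the same database entry, and whether they are the same insert was not tested.

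Plk1, Polo-like kinase 1, which acts in centrosome maturation and spindle assembly, was measured by 1 clone. Its ratios were 2.97 and 3.26 in JA (Cy3, then Cy5), 2.89 and 3.41 in JB, and 2.49 and 2.78 in Amy. In each line the Cy5 value was the higher, and within a dye Amy was the lowest. The mean was 2.97 ± 0.29 (SD, n = 3), a 7.82-fold ratio. Cdc20, the APC/C activator, had a mean of 2.71 ± 0.24 (SD, n = 3), a 6.53-fold ratio. On the single arrays Cdc20 was at 3.06 and 2.90 in JA (Cy3, then Cy5), 2.81 and 2.41 in JB, and 2.40 and 2.67 in Amy. JB and Amy exchanged places with the dye, and the 2 Cdc20 clones averaged 2.84 and 2.58.

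Ccnb2, cyclin B2, a mitotic partner of CDK1, went the other way from Cdk1, and its 2 clones did not match. Over both clones the ratios were -1.57, -0.83 and -1.11 in JA, JB and Amy with the line in Cy3, and -3.20, -2.16 and -1.97 with the line in Cy5. Every Cy5 value was below every Cy3 value. The mean was -1.81 ± 0.50 (SD, n = 3), which is 3.50-fold lower than the pool. The first clone carried this result. It read -3.69, -1.56 and -2.93 in Cy3 and -5.10, -4.06 and -3.25 in Cy5, with a mean of -3.43 ± 0.85 (SD, n = 3), 10.8-fold lower. The second clone read 0.55, -0.10 and 0.70 in Cy3 and -1.30, -0.26 and -0.69 in Cy5, with a mean of -0.18 ± 0.19 (SD, n = 3). The second clone was below 0 on 4 of 6 arrays and changed sign with the dye in JA and Amy, so a lower Ccnb2 level rests on 1 of 2 clones.

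The gap between the Ccnb2 clones, 3.25, stood apart from that of most genes. Among the 655 genes measured by several clones, 28 (4.27%) had clone means at least as far apart, and the median range was 0.53. The ranges were 0.23 for Ccnd1, 0.03 for Cdk1, 0.26 for Cdc20 and 0.12 for the 3 clones of Pcna. Both Ccnb2 clones carry the same database entry, and which of them measures cyclin B2 mRNA was not tested.

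**Figure D2:**
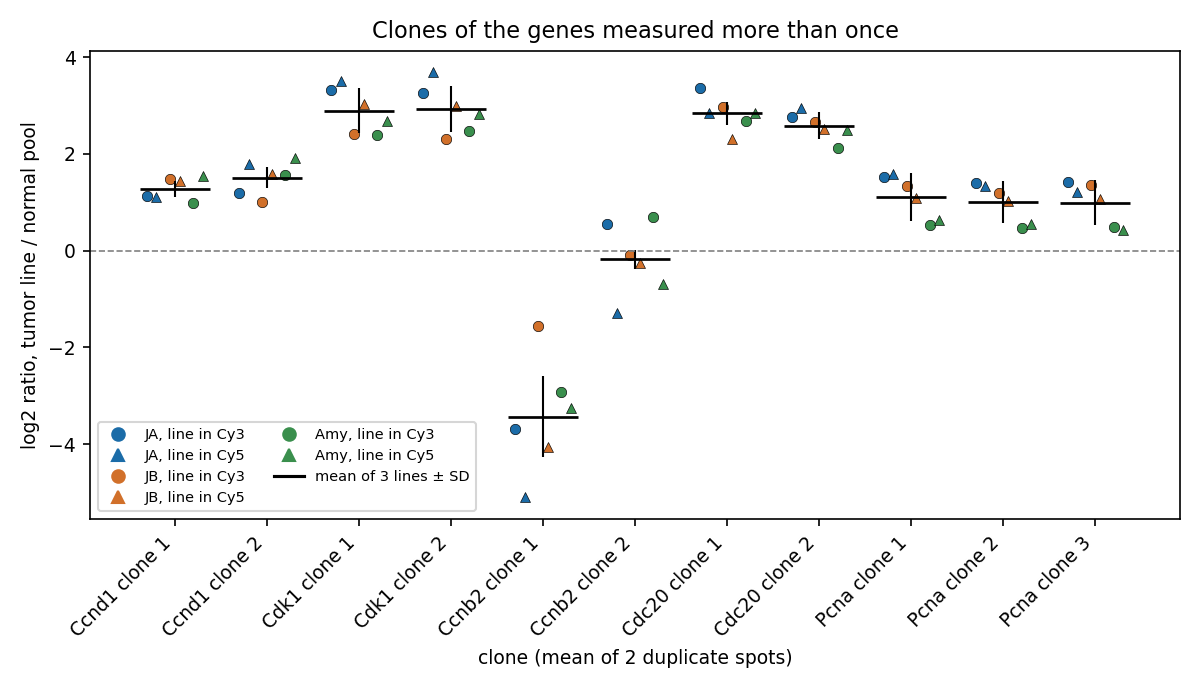
Log2 ratio of tumor line over normal pool (y axis) for each clone of the 5 genes measured by several clones (x axis), with 1 point for each array, coloured by line and shaped by dye; lines and bars are the mean and SD of the 3 lines. The clones of Ccnd1, Cdk1, Cdc20 and Pcna overlap, whereas the Ccnb2 clones average -3.43 and -0.18.

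Aurkb, the catalytic subunit of the chromosomal passenger complex, was slightly lower and measured by 1 clone. Its ratios were 0.01, -0.65 and -0.68 in JA, JB and Amy with the line in Cy3, and -0.96, -0.64 and -0.42 in Cy5. The JA arrays gave both the highest and the lowest value, so the line means differed by less than the arrays of 1 line. The mean was -0.55 ± 0.08 (SD, n = 3), 1.47-fold lower. On the JA array in Cy3 the duplicate spots read -0.46 and 0.48, a gap reached by 4.12% of all pairs, and without the higher spot the mean was -0.63. That array then read -0.46, so Amy in Cy5, at -0.42, was the highest and every array was below 0. Without either JA array the mean was -0.72 (Cy3 array left out) or -0.39 (Cy5 array left out).

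The 3 replication factors were higher in every line and lowest in Amy. Pcna, the sliding clamp, was measured by 3 clones with means of 1.11, 1.00 and 0.99. Its ratios were 1.45 and 1.37 in JA (Cy3, then Cy5), 1.29 and 1.06 in JB, and 0.49 and 0.54 in Amy. The Amy values did not overlap with those of JA and JB. The mean was 1.03 ± 0.46 (SD, n = 3), a 2.05-fold ratio.

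Rfc4 encodes a subunit of the clamp loader that opens and closes the PCNA ring. Its ratios were 2.75 and 2.58 in JA (Cy3, then Cy5), 2.35 and 2.43 in JB, and 1.17 and 1.37 in Amy. Amy again lay below the other lines on both dyes, by the widest margin of the 10 genes. The mean was 2.11 ± 0.74 (SD, n = 3), a 4.31-fold ratio with the largest SD of the 10. Fen1, the flap endonuclease that trims Okazaki fragments, had a mean of 2.02 ± 0.32 (SD, n = 3), a 4.07-fold ratio. On the single arrays Fen1 was at 2.13 and 2.33 in JA (Cy3, then Cy5), 2.53 and 1.84 in JB, and 1.81 and 1.5 in Amy. The order of JA and JB changed with the dye, and Amy was lowest on both. Fen1 and Rfc4 were each measured by 1 clone.

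Ordered by mean log2 ratio, the 10 genes ran Ccne1, Plk1, Cdk1, Cdc20, Rfc4, Fen1, Ccnd1, Pcna, Aurkb and Ccnb2. The steps from Cdc20 to Rfc4 (0.60 ± 0.58), Fen1 to Ccnd1 (0.63 ± 0.42), Pcna to Aurkb (1.59 ± 0.46) and Aurkb to Ccnb2 (1.25 ± 0.57) exceeded the SD of the difference over the 3 lines. Neighbours among Ccne1, Plk1, Cdk1 and Cdc20 differed by less than that SD, as did Rfc4 and Fen1, and Ccnd1 and Pcna. These are ratios to the pool, not transcript levels, so the order says nothing of which mRNA is more abundant.

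The dye orientation played no part in the choice of genes and could be tested. The within-line difference, line in Cy3 minus line in Cy5, was tested against 0 with limma and Benjamini-Hochberg adjustment over all features, of which 36 (0.501%) were called. None of the 10 genes was called by limma (0 of 10), and 4 had an unadjusted p under 0.05, as did 2533 of the 7180 features. The median absolute difference was 0.25 for the 10 genes and 0.27 for all features.

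Ccnb2 had the largest dye difference of the 10. The Cy3 orientation averaged -1.17 and the Cy5 orientation -2.44, a difference of 1.27 ± 0.39 (SD, n = 3 lines; limma adjusted p = 0.0572). It was 1.63 in JA, 1.33 in JB and 0.85 in Amy, the same sign in 3 of 3 lines, and 3.91% of features had an absolute difference as large. Single clones varied more between JA, JB and Amy. The first clone differed by 1.4, 2.5 and 0.3 (SD 1.09) and the second by 1.8, 0.2 and 1.4 (SD 0.87). For the Ccnb2 mean over both clones, limma's adjusted p ranged from 0.0493 after quantile normalization of the arrays to 0.185 without JB. The other 3 with an unadjusted p under 0.05 were higher with the line in Cy5 in all 3 lines. Their limma differences were -0.34 for Ccnd1 (adjusted p = 0.103), -0.43 for Cdk1 (adjusted p = 0.0954) and -0.37 for Plk1 (adjusted p = 0.102). For Ccnd1 the 2 clones were not alike. The first gave 0.013, 0.034 and -0.564 in JA, JB and Amy, the last with the low duplicate spot of Amy in Cy3 included. The second gave -0.6, -0.572 and -0.355. With first clones alone, Ccnd1 was no longer among the genes with an unadjusted limma p under 0.05. On either dye the mean ratios stayed well above 0: 2.70 (Cy3) and 3.12 (Cy5) for Cdk1, and 2.78 and 3.15 for Plk1.

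**Figure D3:**
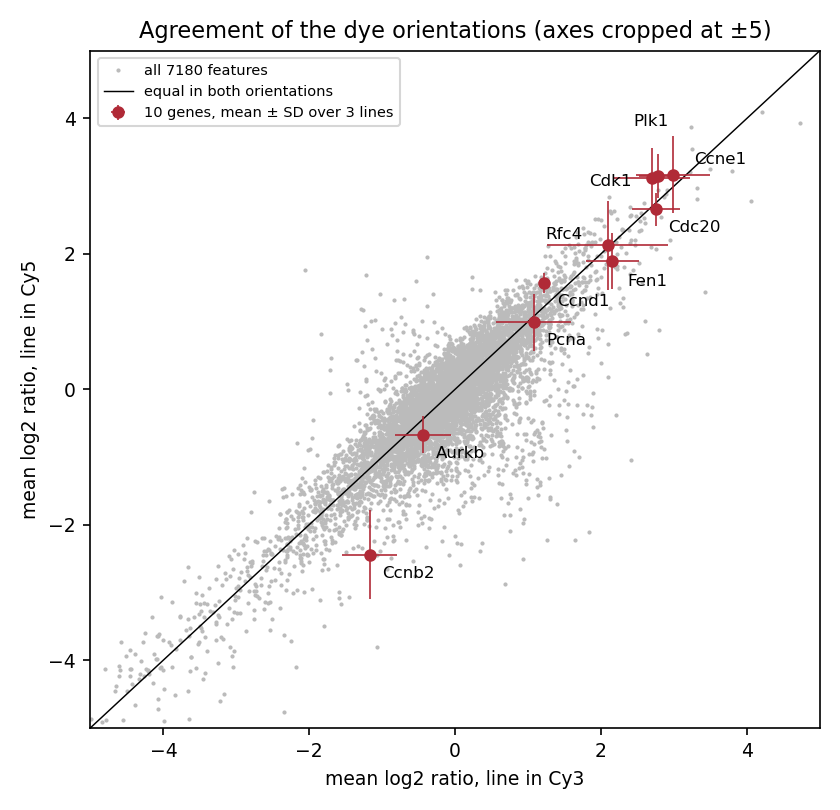
Mean log2 ratio over the 3 lines with the line in Cy5 (y axis) against the same with the line in Cy3 (x axis), for the 10 genes in red with SD bars and all 7180 features in grey; the diagonal marks equal values and axes are cropped. Ccnb2, at -1.17 and -2.44, lies farthest from the diagonal, and the 8 genes above 0 lie close to it.

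The lines differed most in Rfc4. With 1 RNA source for each line no test between lines was possible, so a line was said to stand apart where it differed from both other lines by at least 1 on the log2 scale in both dye orientations. Of all features 2.77% met this size in any line and direction, and 0.195% with Amy the lower line. Of the 10 genes only Rfc4 met it, with JA above Amy by 1.59 (Cy3) and 1.21 (Cy5) and JB above Amy by 1.19 and 1.06. After quantile normalization of the arrays Rfc4 no longer met it.

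At the smaller size of 0.5, 13.8% of features had a line apart, and 4 of the 10 genes did. Ccne1, Pcna and Rfc4 were lower in Amy, as were 1.94% of features. For Ccne1 JA exceeded Amy by 0.94 and 1.14 (Cy3, then Cy5), and JB exceeded Amy by 0.78 and 0.56. For Pcna the corresponding gaps were 0.96 and 0.83, and 0.80 and 0.51. Cdk1 was higher in JA, as were 1.21% of features: JA exceeded JB by 0.94 and 0.59 and Amy by 0.86 and 0.85. Quantile normalization left Rfc4 alone of these 4, and the first clone of each gene left Ccne1 and Rfc4. The arrays of Amy also had the narrowest spread of all log ratios, with SDs of 1.11 and 1.13 against 1.16 to 1.26 on the arrays of JA and JB, and the part of this spread in the lower Amy values was not tested beyond the quantile normalization.

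Amy was the lowest line in both dye orientations for 5 of the 10 genes: Ccne1, Plk1, Pcna, Fen1 and Rfc4. This count was chosen after the data were seen. The same held for 20.8% of all features and for 21 of 60 other cell cycle and DNA synthesis genes (35%). Ccnd1, averaged over its clones, ran the other way, with Amy the highest on both dyes but by no more than 0.28. Without the low duplicate spot of its first clone, Amy in Cy3 read 1.59, against 1.16 in JA and 1.24 in JB. With that spot kept, the first clone had Amy lowest in Cy3, at 0.98, and highest in Cy5. The second clone had Amy highest on both dyes.

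**Figure D4:**
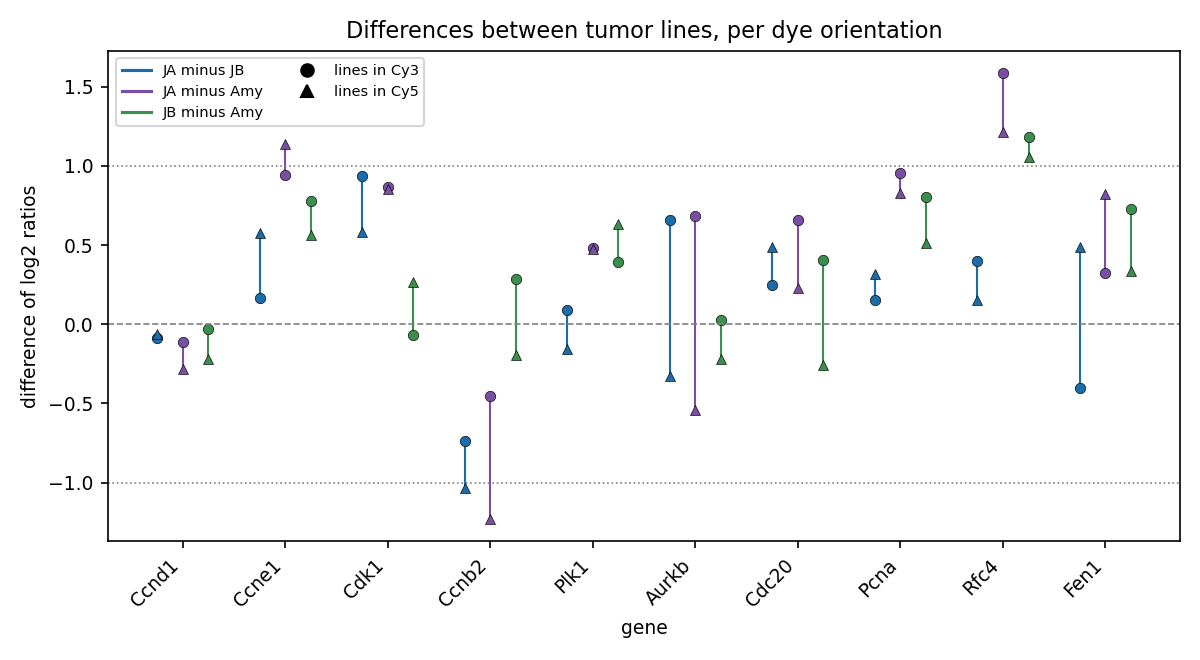
Difference of log2 ratios (y axis) between each pair of tumor lines for the 10 genes (x axis), with circles for lines in Cy3 and triangles for lines in Cy5; dotted lines mark a difference of 1. For Rfc4 all 4 differences from Amy lie between 1.06 and 1.59, whereas those of Aurkb change sign with the dye.

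Of 308 other genes on 7 lists of cell cycle and DNA synthesis functions, 60 were on the array and 46 of these by 1 clone. By limma's test (adjusted p under 0.05) 34 of the 60 rose, 5 fell and 21 did not pass; the median log2 ratio was 0.56. The same test over all 7180 features called 1487 higher, 2356 lower and 3337 neither way, and the median feature was at -0.12. With each array centred on its median, 1844 features were higher and 1981 lower, which moves the split of calls toward higher, while 37 of the 60 genes rose and 3 fell. The lists were drawn up with results of these data known, so the counts describe the lists and are not independent evidence of a direction.

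Of 9 other G1 and S phase regulators, 6 rose, 1 fell and 2 failed the test; their median was 0.89. Cdk4, the kinase partner of the D-type cyclins, rose by 1.57 ± 0.12 (limma adjusted p = 0.000686). Tfdp1, the dimerization partner of E2F, rose by 1.39 ± 0.32 and Cks2, a small CDK-binding protein, by 1.28 ± 0.30. The other D-type cyclins also rose, Ccnd2 by 1.23 ± 0.57 (limma adjusted p = 0.00936) and Ccnd3 by 0.89 ± 0.26. The Ccnd2 call was lost without JA (limma adjusted p = 0.0719) and without Amy (0.0585). The gene that fell was Cdc34, a ubiquitin-conjugating enzyme, at -0.36 ± 0.10, named here after its value was seen, and it was above 0 on the JB array in Cy3.

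Genes that restrain the cycle showed no common direction. Of 7 CDK inhibitors and growth arrest genes, 1 rose, 2 fell and 4 did not pass; the median was -0.06. Gadd45g, a stress-induced growth arrest gene, fell by 1.67 ± 0.41 and Mxi1, an antagonist of MYC, by 0.93 ± 0.16, whereas Gadd45a rose by 0.78 ± 0.21. Cdkn1b, which encodes the cyclin E-CDK2 inhibitor p27, was at -0.36 ± 0.11 (limma adjusted p = 0.0506). Its 2 clones differed in sign, at -0.85 and 0.14.

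The mitotic partners of Cdk1, Plk1, Cdc20 and Aurkb mostly rose: of 8 genes 7 rose and 1 fell, with a median of 1.29. Mybl2, a transcription factor of G2 and M phase genes, rose by 1.96 ± 0.64. Pttg1, or securin, an APC/C-CDC20 substrate, rose by 1.47 ± 0.30, and Ube2s, the ubiquitin-conjugating enzyme that extends chains for the APC/C, by 1.39 ± 0.37. Of the spindle checkpoint genes, Bub3 rose by 1.20 ± 0.18 and Mad2l1 by 0.48 ± 0.11. The APC/C subunits Anapc11 and Anapc13 were split, at 0.38 ± 0.03 (limma adjusted p = 0.0361) and -0.55 ± 0.35 (limma adjusted p = 0.0410). The calls of Mad2l1, Anapc11 and Anapc13 were each lost when JA or JB was left out, with limma adjusted p of 0.0650 to 0.193. Those of Mad2l1 and Anapc11 were also lost without Amy (limma adjusted p = 0.0856 and 0.122). With the line in Cy3 alone Mad2l1, Anapc11 and Anapc13 did not pass (limma adjusted p = 0.115, 0.116 and 0.123). Anapc13 also did not pass with each array centred on its median (limma adjusted p = 0.0845).

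Incenp, the scaffold that binds and activates Aurora B, was above 0 where Aurkb was below it. Incenp rose by 1.83 ± 0.12 (limma adjusted p = 0.000432). Its ratios were 3.08, 3.03 and 2.27 in JA, JB and Amy with the line in Cy3, but 0.75, 0.73 and 1.13 in Cy5. It was above 0 on all 6 arrays, and the size of the rise depended on the dye, with a difference of 1.92 between orientations (limma adjusted p = 0.0572).

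Of 7 spindle, kinetochore and chromosome structure genes, 4 rose and 3 did not pass; the median was 0.94. The kinetochore protein gene Cenpt rose by 2.15 ± 0.22, Tubg1, or gamma-tubulin, by 1.25 ± 0.35, the cohesin subunit gene Rad21 by 1.14 ± 0.36, and Stmn1, which destabilizes microtubules, by 0.94 ± 0.16.

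Most replication genes beyond Pcna, Rfc4 and Fen1 did not pass the test. Of 11, 3 rose, 1 fell and 7 did not pass; the median was 0.31. Rfc2, another clamp loader subunit, rose by 1.74 ± 0.54 (limma adjusted p = 0.00302). Pola1, the catalytic subunit of polymerase alpha, rose by 0.95 ± 0.64, a call lost without JA (limma adjusted p = 0.145) and without Amy (0.131). Gins4, a subunit of the replicative helicase, rose by 0.55 ± 0.36 (limma adjusted p = 0.0435). The Gins4 call was lost without JA (0.204), without JB (0.0972) and with the line in Cy3 alone (0.0711). Timeless, a fork protection gene, fell by 0.66 ± 0.09 (limma adjusted p = 0.00723). Its call was lost without JA (0.0532) and with the line in Cy3 alone (0.0548). The primase and polymerase epsilon subunits Prim2 and Pole3 were at 0.49 ± 0.47 and 0.35 ± 0.48 and did not pass. Rfc1, the large clamp loader subunit, was at -0.20 ± 0.19 and did not pass; its 2 clones averaged 0.78 and -1.17, so within the clamp loader Rfc4 and Rfc2 were higher and the clones of Rfc1 differed in sign.

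Enzymes that supply nucleotides rose almost throughout: of 9, 8 rose and 1 did not pass; the median was 1.19. Atic, which closes the purine ring, rose by 2.33 ± 0.31 and Umps, which makes UMP, by 2.21 ± 0.53. Dhodh, an earlier step of pyrimidine synthesis, rose by 1.80 ± 0.56, with 3.26, 2.06 and 2.47 in JA, JB and Amy on Cy3 and 0.98, 0.26 and 1.79 on Cy5. Dtymk, the thymidylate kinase, rose by 1.31 ± 0.31.

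Of 9 DNA damage checkpoint and repair genes, 5 rose and 4 did not pass; the median was 0.41. Apex1, the base excision repair endonuclease, rose by 0.77 ± 0.06. Mdm2, the p53 ubiquitin ligase, rose by 0.41 ± 0.10 (limma adjusted p = 0.0323). The Mdm2 call was lost when any 1 line was left out (0.0811 to 0.132) and with the line in Cy5 alone (0.0950). Ercc1, Pms2 and Rad23b passed but did not keep 1 sign over the 6 arrays. Chek1, the checkpoint kinase that acts on the CDK1 activator CDC25, was at 0.39 ± 0.92 and did not pass. Its JA array in Cy3 read 2.86, and the other arrays lay between -0.58 and 0.22.

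**Figure D5:**
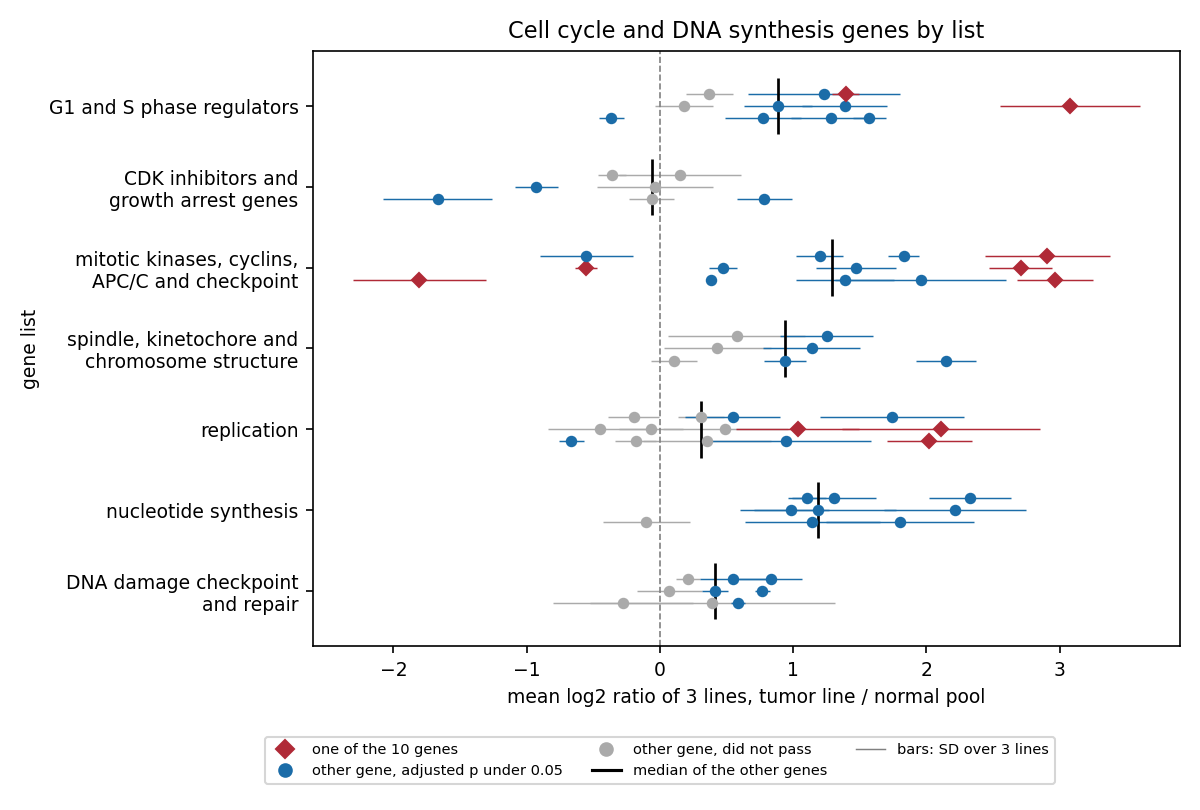
Mean log2 ratio of the 3 lines with SD bars (x axis) for the 60 other genes on 7 lists (y axis), blue where limma's adjusted p is under 0.05 and grey otherwise, with the 10 genes as red diamonds and the median of the other genes as a black bar. The mitotic list has the highest median, 1.29, and the CDK inhibitor list the lowest, -0.06.

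The gene whose profile lay nearest to each of the 10 was found by the root mean square difference of log2 ratios over the 6 arrays, among 3157 other named genes. Plk1 was nearest to both Ccne1 (0.31) and Cdk1 (0.33). The nearest gene to Rfc4 was Mybl2 (0.31), and that to Fen1 was Pclaf (0.21), whose product binds PCNA. Pcna had the closest match of the 10, Ubr7 (0.10), and Ccnb2 the loosest, Ly6h (0.39). The others were Adcy2 for Ccnd1 (0.17), Penk for Plk1 (0.22), Fst for Cdc20 (0.26) and Plagl2 for Aurkb (0.20). Likeness here is in ratios over 6 arrays of 3 lines and includes the mean level of the ratio.

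The labelled tissue was checked against marker genes. Of a list drawn up as squamous epithelial markers only Lgals7, Cstb, Trim29 and Krt8 were measured. Krt8 is a keratin of simple rather than squamous epithelium. Among these genes 2 were lower and 2 did not pass, with array medians of -0.91 to 0.03 that include Krt8. Lgals7, or galectin-7, a marker of stratified epithelium, was at -5.82 ± 1.00 (SD, n = 3), far below those medians, and Cstb at -0.68 ± 0.46. The 2 that did not pass were Trim29 at -0.35 ± 0.45, above 0 on both Amy arrays, and Krt8 at 0.41 ± 0.40. Of 16 fibroblast and matrix markers 12 were lower, 3 higher and 1 failed the test, with array medians of -2.84 to -2.12, and of 9 leukocyte markers 8 were lower and 1 higher, with array medians of -3.67 to -3.28. Col1a2 was at -8.90 ± 0.46 and Cd74, the invariant chain, at -3.86 ± 0.42. Not all markers called lower kept 1 sign. The leukocyte marker Cd53 read 0.81, 1.12 and 0.25 in JA, JB and Amy in Cy3 but was below 0 in Cy5. The matrix marker Fbln5 was above 0 on the JA array in Cy5. The higher ones were the matrix markers Timp3, Col6a2 and Timp2, at 1.28, 1.06 and 0.97, and the leukocyte marker Tyrobp, at 0.67. Read as line over pool, most markers on these lists were thus higher in the pool. The part of the markers in the ratios of the 10 genes was not tested. Correlations ranged from 0.907 to 0.949 between duplicate spots and from 0.815 to 0.888 between dye-swapped arrays. Among the 96 duplicate-spot pairs of the 16 clones, 3 differed by over 0.5 (3.13%), against 10.1% of all pairs.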

How the data were processed

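Total RNA of 3 tumor lines was hybridized against 1 normal pool on 6 two-colour arrays. The deposited values were log ratios, 1 for each spot and array, used as log2 ratios; the log base, scanner, background correction and normalization are not given in the sources used here. Intensities were not used, so signal over background is unknown, and precision is limited by having 3 lines. By the platform annotation, 8084 of 16128 spots had a single gene symbol, 40 several and 8004 none, and 8076 were matched by gene identifier to RefSeq GRCr8, which changed 0 symbols. Spots of a gene were averaged, and clones lacking a single symbol were kept apart; both are called features.

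The arrays of a line were averaged and the 3 line means tested against 0 with limma 3.58.1 (lmFit, eBayes; R 4.3.3), in a two-sided test, at 0.05 after adjustment by Benjamini and Hochberg for 7180 features. Replicate numbers are dye orientations per the labels. The orientation differences correlated between lines at 0.613 (JA and JB), 0.552 (JA and Amy) and 0.526 (JB and Amy), and the arrays are therefore paired by number. Code was tested on simulated data.

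The 10 genes, the lists and the rule for named genes were chosen with earlier results of these data known. The rule named the 10 genes, up to 4 highest and 4 lowest passing genes of each list with 1 sign on all arrays, measured partners of the 10, and the nearest profile of each. Alternatives were centring, quantile normalization, the first clone, each dye alone, lines and arrays left out, a replicate block, ordinary variances, a dye-swap filter and other sizes; added after seeing the data were single clones, stray spots left out, Amy as the lowest line and the longer promoter window. A planned search of protein motifs was not run, since no protein table was used here. Scripts ran in Python 3.11.15 with pandas 2.3.3 and numpy 2.4.6, and figures were drawn with matplotlib 3.10.9.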

Additional observations from a re-analysis of the deposited data

How the results depend on the processing

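For the 10 genes, 157 of 169 mean ratios under the alternative settings moved by less than 1 SD over lines, 12 moved by more (Ccnd1 4, Ccnb2 3, Aurkb 5) and 0 changed sign. Ordinary variances, the dye-swap filter and the replicate block leave a mean unchanged, as does the first clone for genes with 1 clone. Leaving out 1 of 3 lines cannot move a mean by 1 SD. Many of the 157 were thus fixed in advance and say nothing of robustness. Ccnb2 ranged from -3.43 to -1.17, Rfc4 from 1.83 to 2.53 and Aurkb from -0.72 to -0.39. With the replicate block and line as a random block, 1557 features were higher and 2356 lower, with 36 and 5 of the 60 pathway genes, and the pairing changed none of the counts by over 1.5 times. Leaving out a line or array gave 709 (without JA) to 1448 features higher, 1367 (without JA) to 2301 lower, 24 to 33 pathway genes higher and 2 (without JA) to 5 lower; the lower count was 3 without either JA array, the JB array in Cy5 or the Amy array in Cy5. Ordinary variances gave 300 features higher and 740 lower, with 9 and 1 pathway genes. They ended 22 of the 30 calls among 34 named list genes. In other settings 8 of the 30 were lost. Of these, Anapc13, Ccnd2, Gins4, Mad2l1, Mdm2 and Pola1 were also among the 22. Centring left 3 pathway genes lower and the Cy3 orientation alone 2. Features called for dye numbered 408 after quantile normalization, with 1 of the 10 genes (Ccnb2), and 0 without any 1 line (1399 to 2323 at an unadjusted limma p under 0.05). A line stood apart in 990 features at a size of 0.5 and 64 at 1.5, with 4 and 0 of the 10 genes, and in 0 of the 10 after quantile normalization at a size of 1. Rfc1 turned to 0.78 (limma adjusted p = 0.00933) with its first clone alone. Prim2 passed without Amy (limma adjusted p = 0.0322), and Cdkn1b under 4 settings. Without intensities, spots near background could not be found.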
